A study of Mus musculus with 3 samples.

Results

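The transcripts described are those of 34 listed genes for glycolysis, lactate handling and the pentose phosphate pathway, measured in 3 mouse pluripotent cell lines. The members were found by gene symbol in the probe table of the array platform. Of the 34 genes, 29 had at least 1 probe, with 43 probes among the 25697 of each array. Above background on at least 1 array were 36 of these probes, which stood for 26 genes out of 8688 genes tested in all, and 23 of the 26 were above background on all 3 arrays. Gpi1, Eno1, Ldhb, G6pdx and Pgd had no probe under their symbol and were not analysed here. Pfkfb3, Slc16a1 and Pdk2 had a probe that was not above background in any line, and no level is given for them.

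The study hybridised RNA of 2 epiblast stem cell (EpiSC) lines, E3 and T9, and of 1 embryonic stem cell (ESC) line, OG2, to 1 Illumina bead array per line. EpiSC resemble the epiblast after implantation and ESC the epiblast before it. The labels give a hybrid background for E3 and for OG2 and a 129 background for T9. E3 and T9 grew on inactivated CF1 mouse embryonic fibroblasts in KSR medium with FGF2 at 5 ng/ml and were harvested with collagenase IV, with little feeder material per the labels. OG2 grew on gelatin in KSR medium with the MEK inhibitor PD0325901 at 1 uM, the GSK3 inhibitor CHIR99021 at 3 uM and LIF at 1000 U, and was harvested on the dish. No line was otherwise treated. Cell type, medium, feeders and harvest therefore cannot be told apart, and each line is represented by 1 culture.

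Glycolysis splits glucose into pyruvate in the cytosol. Pyruvate is either reduced to lactate by lactate dehydrogenase and exported, or passed to the mitochondrion through pyruvate dehydrogenase, which pyruvate dehydrogenase kinases switch off. The pentose phosphate pathway branches off after hexokinase and makes NADPH and ribose. Most steps are served by several isoenzymes from separate genes, with different tissue distribution. Pluripotent cells are known for a high glycolytic flux, and EpiSC are known to depend on glycolysis more than ESC do.

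The identity of the lines was checked first. The shared pluripotency factor gene Pou5f1 lay between 12.41 and 12.65 on all 3 arrays (normalized log2 intensity), and Sox2, another shared factor gene, differed from OG2 by -1.03 for E3 and -0.79 for T9 on the log2 scale (adjusted p = 0.168). The naive factor genes Zfp42, Esrrb and Klf4 were lower in EpiSC and the epiblast gene Fgf5 was detected in EpiSC only. Of 15 fibroblast markers with a probe, 5 were above background in E3, 7 in T9 and 8 in OG2. Their summed normalized intensity over 22 probes was 985 in E3, 1634 in T9 and 4956 in OG2, so the sum was lower in the lines grown on feeders. Without the smooth muscle actin gene Acta2 the sum was 1005 in OG2, 719 in E3 and 656 in T9. That sum still holds the marker gene Lox, at a level of 8.34 in OG2 and not above background in E3 or T9. Lox was the only marker past the limma threshold (adjusted p = 0.0342), and the filter fixed its direction. The sums also include probes that were not above background. Of 9 tested markers 3 had a higher and 6 a lower EpiSC mean. The surface protein gene Thy1 was among the higher ones, 5.92-fold above OG2 in E3 and 1.45-fold in T9, and the collagen gene Col1a1 was not above background in E3. In whole cultures, more cells of a type and more RNA per cell cannot be told apart. Above background were 10768 to 11171 probes per array, and for probes above background the bead standard error had a median of 4.17% to 4.36% of the signal. With 3 arrays, precision is limited by their number.

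Of the 26 tested genes, 5 rose in EpiSC against ESC, 0 fell and 21 did not pass the limma test at an adjusted p of 0.05. The 5 were the phosphofructokinase gene Pfkl, the aldolase gene Aldoc, the triose phosphate isomerase gene Tpi1, the lactate dehydrogenase gene Ldha and the lactate exporter gene Slc16a3. Over all tested genes 0.299% were called higher and 0.921% lower. The smallest measured fold, up or down, among all probes past the threshold was 6.003. Slc2a1, Aldoa, Pgam1, Eno3, Pkm and Pdk1 were higher by less than that, a size at which no probe was called. Hk1 (2.62-fold) and Pfkp (2.25-fold) were lower by less than that too. That these genes did not pass therefore does not show that they were unchanged. Nor does it set the higher ones apart from the 5. At an unadjusted p under 0.05, 12 members were higher and 2 lower, against 12% and 12.2% of all genes tested. The 12 genes were also at least 2-fold above OG2 in E3 and in T9, and they covered glucose uptake, the middle and lower part of glycolysis, lactate and a pyruvate dehydrogenase kinase. In E3, 12 of 26 members were 2-fold higher than in OG2 and 2 lower, against 10.8% and 9.76% of all genes. In T9 the counts were 12 and 2 as well, against 10.9% and 9.76%, and both comparisons share the OG2 array. The median log2 difference of the 26 genes was 0.53, against 0.05 over all genes tested.

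The 5 calls rest on a test with 1 residual degree of freedom per probe, and they cover the spread between 2 lines and not repeat cultures. The eBayes step of limma draws the variance of each probe towards a value shared by all tested probes. Pgam1, with E3 minus T9 at -0.01, thus still had an SE of 0.25, so the SE is not the gene's own spread alone. With no filter on dim probes none of the 5 passed (limma adjusted p from 0.105 to 0.122, with 4462 probes at an unadjusted p under 0.05), nor did they in the authors' processed table (adjusted p of 0.160 for each, with 2899 such probes). Slc16a3 and Eno2 passed the filter through the EpiSC arrays alone, which fixed their direction, and over the 23 members detected on all 3 arrays the median log2 difference was 0.49.

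**Figure D1:**
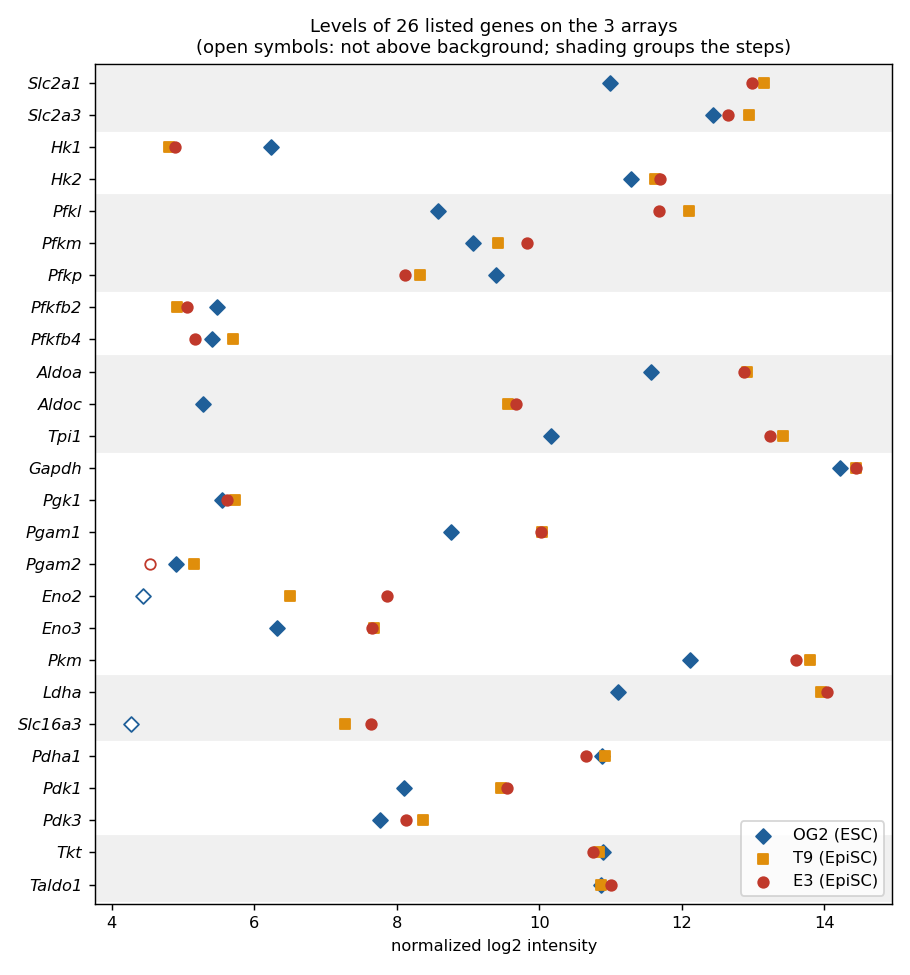
Normalized log2 intensity (horizontal axis) of the 26 tested genes in E3, T9 and OG2, ordered by step of the pathway. Open symbols were not above background; levels compare lines within a gene and not genes with each other. Slc2a1, Pfkl, Aldoa, Aldoc, Tpi1, Pgam1, Eno2, Eno3, Pkm, Ldha, Slc16a3 and Pdk1 show both EpiSC lines well to the right of OG2, and Hk1 and Pfkp show OG2 on the right.

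Promoters of the members were read for the core of the hypoxia response element, because several higher genes are textbook targets of hypoxia-inducible factors. These include Ldha, Aldoc, Pdk1 and Slc2a1. Pgk1, Slc2a3 and Hk2, also known as such targets, were not 2-fold higher, with log2 differences of 0.14, 0.35 and 0.37. Windows of 300 bases, 250 before and 50 after each RefSeq start (build GRCm38.p6), were available for 33 of the 34 genes. The motif ACGTG was searched on both strands, and so was the E-box CACGTG, which holds it. The core was found in 14 of 25 tested members with a window (56.0%), against 29.9% of 7083 tested genes. The tested members had 1.48 windows per gene against 1.29, and per window the shares were 45.9% and 25.6%. Among the members 2-fold higher in both EpiSC lines it was found in 7 of 12 (58.3%), and among the other tested members in 7 of 13 (53.8%). Of the hypoxia targets named above, Ldha, Aldoc, Slc2a1, Pgk1 and Hk2 hold the core, Pdk1 does not, and Slc2a3 had no window. The E-box was found in 3 of 25 tested members (12.0%) and in 12.0% of all tested genes. A match is a description of letters and not a bound site, and base composition was not matched.

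The promoters of the 5 genes that rose are shown because they rose together and yet differ in this motif, with the matches in capitals and each sequence on the strand of its gene. Ldha (chr7:46845554-46845853, plus strand) holds 3 stretches, of which those at -145 and -48 are E-boxes. Slc16a3 (chr11:120948817-120949116, plus strand) holds 2 matches close to its start, and Aldoc (chr11:78322823-78323122, plus strand) 1 match just after it. Second windows of Ldha and Aldoc hold none. Neither Pfkl (chr10:78009758-78010057, minus strand) nor Tpi1 (chr6:124814109-124814408, minus strand) holds a match in this window.
Ldha: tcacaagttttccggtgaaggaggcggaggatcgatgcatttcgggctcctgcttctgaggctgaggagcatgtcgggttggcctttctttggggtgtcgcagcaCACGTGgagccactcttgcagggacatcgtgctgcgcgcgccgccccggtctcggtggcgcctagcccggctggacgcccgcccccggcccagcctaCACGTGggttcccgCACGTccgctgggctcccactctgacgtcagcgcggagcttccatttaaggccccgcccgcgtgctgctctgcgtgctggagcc
Slc16a3: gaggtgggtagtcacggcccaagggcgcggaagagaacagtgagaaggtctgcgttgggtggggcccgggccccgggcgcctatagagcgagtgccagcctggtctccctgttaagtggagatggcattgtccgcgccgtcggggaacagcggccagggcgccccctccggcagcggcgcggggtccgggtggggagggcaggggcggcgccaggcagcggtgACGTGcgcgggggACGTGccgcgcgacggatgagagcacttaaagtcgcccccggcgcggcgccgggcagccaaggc
Aldoc: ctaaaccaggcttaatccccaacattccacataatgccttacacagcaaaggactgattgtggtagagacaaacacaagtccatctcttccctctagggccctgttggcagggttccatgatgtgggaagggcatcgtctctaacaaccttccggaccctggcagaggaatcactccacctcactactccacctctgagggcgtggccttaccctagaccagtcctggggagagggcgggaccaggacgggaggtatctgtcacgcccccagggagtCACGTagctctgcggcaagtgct
Pfkl: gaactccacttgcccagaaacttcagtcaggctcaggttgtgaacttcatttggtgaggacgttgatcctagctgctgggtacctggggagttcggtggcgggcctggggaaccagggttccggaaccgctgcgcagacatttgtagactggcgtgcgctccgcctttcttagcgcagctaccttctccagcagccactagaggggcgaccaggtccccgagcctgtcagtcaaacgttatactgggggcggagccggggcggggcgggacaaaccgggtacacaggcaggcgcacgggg
Tpi1: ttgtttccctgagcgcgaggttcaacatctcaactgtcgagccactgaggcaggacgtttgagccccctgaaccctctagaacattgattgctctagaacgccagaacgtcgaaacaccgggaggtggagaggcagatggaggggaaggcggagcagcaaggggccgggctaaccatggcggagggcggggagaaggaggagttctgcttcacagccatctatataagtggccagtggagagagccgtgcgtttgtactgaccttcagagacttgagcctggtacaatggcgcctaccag

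**Figure D2:**
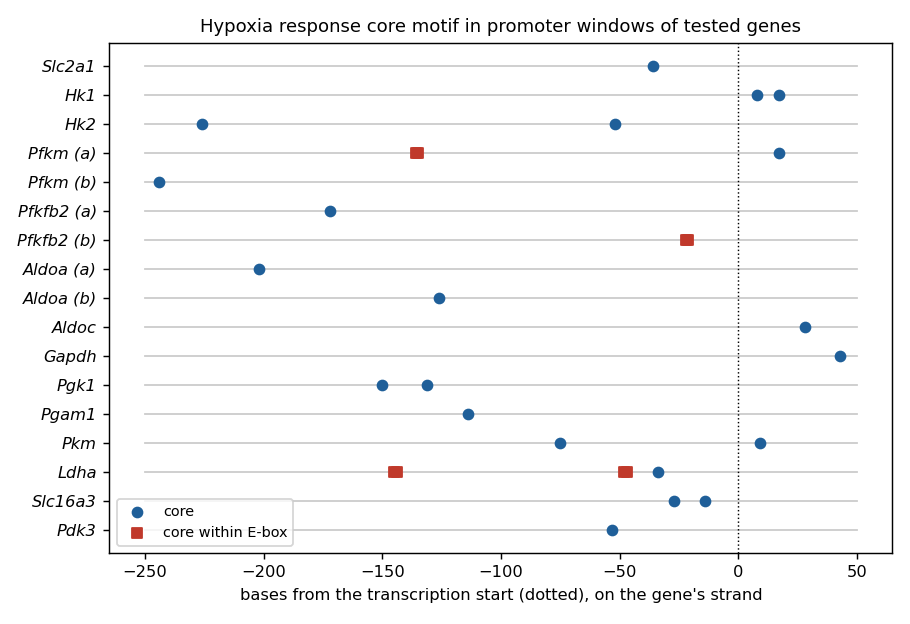
Position of the core motif (horizontal axis, bases from the start on the strand of the gene) in the 17 promoter windows of 14 tested genes that hold it; letters tell windows of the same gene apart. Ldha shows the most matches, and matches lie on both sides of the start.

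Glucose enters through facilitative transporters. The signal of Slc2a1, the widely expressed transporter gene, was 9108 ± 244 in E3, 9211 ± 309 in T9 and 2001 ± 49.1 in OG2 (linear scanner intensity ± standard error over beads, which is error within an array only). Both EpiSC lines lay far above OG2 and close to each other. The normalized difference was 2.07 ± 0.26 on the log2 scale (limma SE, with 2 arrays against 1), which is 4.20-fold with an adjusted p of 0.0641. It passed the threshold when arrays were scaled by their medians (0.0380) or by cyclic loess (0.0448). Slc2a3, the high-affinity transporter gene, gave signals of 7100 ± 227 in E3, 7944 ± 265 in T9 and 5227 ± 230 in OG2. Its difference was 0.35 ± 0.28 (adjusted p = 0.498).

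Hexokinase traps glucose in the cell as glucose phosphate. Hk2, the inducible hexokinase gene, gave signals of 3554 ± 90.7 in E3, 3201 ± 116 in T9 and 2499 ± 124 in OG2, and its difference was 0.37 ± 0.25 (adjusted p = 0.437). Hk1, the broadly expressed one, went the other way, from 138 ± 6.85 in OG2 to 96.1 ± 3.25 in E3 and 94.0 ± 3.82 in T9, which is close to background in the EpiSC lines. The Hk1 difference was -1.39 ± 0.25 (adjusted p = 0.0926), and between -2.16 in the authors' processed table and -0.80 when 50 in place of 16 was added to the intensities after background correction (the offset). The ratio to OG2 was thus 3.36-fold larger for the Hk2 probe than for the Hk1 probe in E3 and 3.39-fold larger in T9, with the range over settings given with the isoenzyme pairs.

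Phosphofructokinase commits sugar to glycolysis and has a liver-type, a muscle-type and a platelet-type gene. The liver-type one rose and the others did not pass the test. Those others differed by less than the smallest fold called for any probe (6.003), so they are not shown to be unchanged. The liver-type gene Pfkl gave signals of 3503 ± 112 in E3, 4517 ± 132 in T9 and 430 ± 22.9 in OG2. It rose by 3.31 ± 0.31 on the log2 scale, which is 9.94-fold (limma adjusted p = 0.0453). A second Pfkl probe was dim, with 117 ± 6.15 in E3, 123 ± 6.64 in T9 and a signal not above background in OG2, and gave at least 1.82-fold (adjusted p = 0.122). The platelet-type gene Pfkp was lower in both EpiSC lines, at 347 ± 21.0 in E3 and 396 ± 26.8 in T9, and OG2 lay at 715 ± 66.2. Its difference was -1.17 ± 0.27 (adjusted p = 0.121), and a second Pfkp probe gave -1.07 ± 0.27 (adjusted p = 0.139). The muscle-type gene Pfkm lay in between, with signals of 998 ± 44.5 in E3, 763 ± 35.8 in T9 and 574 ± 34.5 in OG2. Its 3 probes gave 0.68, 0.56 and 0.55, with adjusted p from 0.246 to 0.347.

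The PFKFB enzymes make and break the sugar phosphate that activates phosphofructokinase. Their probes were dim, and none of the tested ones was 2-fold apart between EpiSC and ESC. Pfkfb2 gave 99.7 ± 2.89 in E3, 96.7 ± 2.94 in T9 and 108 ± 4.50 in OG2, a difference of -0.50 ± 0.26 (adjusted p = 0.330). Pfkfb4 gave 102 ± 3.37 in E3, 119 ± 4.58 in T9 and 106 ± 3.43 in OG2, with OG2 between the EpiSC lines and a difference of 0.03 ± 0.34 (adjusted p = 0.963).

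Aldolase and triose phosphate isomerase split the sugar into triose phosphates and interconvert them. Aldoc, known as the brain-type aldolase gene, had the largest difference of the 26 genes. Its signal was 904 ± 30.8 in E3, 837 ± 32.6 in T9 and, in OG2, 102 ± 4.65, which is just above background. It rose by 4.35 ± 0.26 on the log2 scale, or 20.4-fold (limma adjusted p = 0.0317), with 3.50 at an offset of 50 and 4.94 in the authors' processed table. Aldoa, the muscle-type and most widely expressed gene, gave 8459.8 ± 317 in E3, 7862 ± 270.2 in T9 and 2983 ± 99.1 in OG2. Its difference was 1.32 ± 0.25, or 2.50-fold (adjusted p = 0.0956).

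Tpi1, the only gene listed for its step, gave 10787 ± 310.1 in E3, 10542 ± 306 in T9 and 1186 ± 51.0 in OG2 with its brightest probe. It rose by 3.17 ± 0.26, or 8.98-fold (limma adjusted p = 0.0386). A second bright probe gave 4837 ± 192 in E3, 4402 ± 191 in T9 and 523 ± 22.4 in OG2, and rose by 3.19 ± 0.25 (adjusted p = 0.0357). The third Tpi1 probe was dimmer and read 235 ± 12.8 in E3, 226 ± 8.13 in T9 and 170.5 ± 9.15 in OG2, and its difference was only 0.57 ± 0.26 (adjusted p = 0.278). The Tpi1 probes thus did not give the same size of change. The mean of all tested probes gave 2.31 for Tpi1 (adjusted p = 0.0595) and 2.21 for Pfkl (adjusted p = 0.0694), and an offset of 50 gave an adjusted p of 0.0509 for Pfkl.

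**Figure D3:**
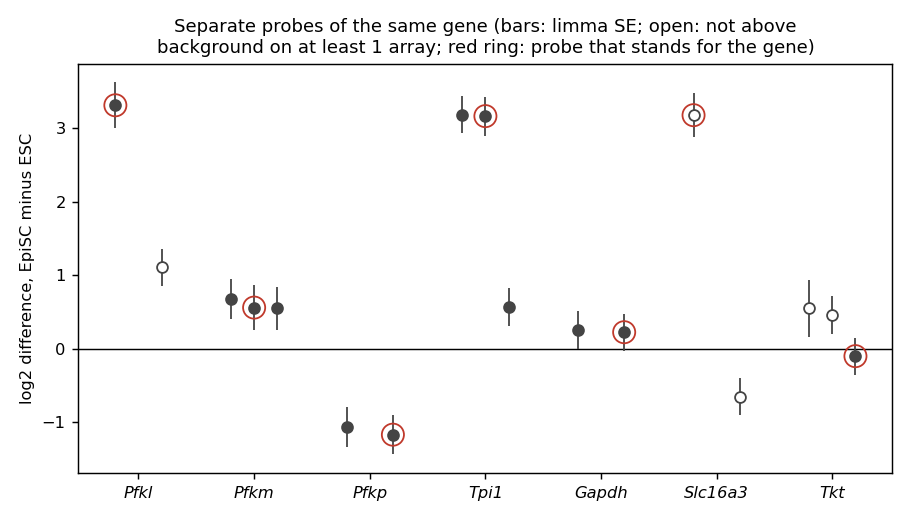
Log2 difference between EpiSC and ESC (vertical axis, bars are limma SE) for each tested probe of the 7 genes with more than 1 tested probe. The probes of Pfkm, Pfkp and Gapdh lie close together, 1 of 3 Tpi1 probes lies far below the other two, and the Slc16a3 probes, each not above background on at least 1 array, lie on opposite sides of 0.

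The lower part of glycolysis turns triose phosphate into pyruvate and yields ATP. None of its 7 tested members passed the limma test, and 4 were higher at an unadjusted p under 0.05 (12% of all genes tested). Of these, Eno2 passed the filter through the EpiSC arrays alone. The others, Pgam1, Eno3 and Pkm, differed by less than the smallest fold called for any probe (6.003). Gapdh, the triose phosphate dehydrogenase gene often used as a reference gene, was the brightest probe of the set with 23781 ± 539 in E3, 23217 ± 487 in T9 and 17562 ± 361 in OG2. After normalization it differed by 0.23 ± 0.25 (adjusted p = 0.620), and a second probe gave 0.25 ± 0.25. Quantile normalization sets levels by rank and gave this brightest probe 14.45 in both E3 and T9. With median scaling its difference was 0.34. Pgk1, the phosphoglycerate kinase gene, was read by a single probe close to background, with 115 ± 4.72 in E3, 121 ± 5.72 in T9 and 110.1 ± 5.79 in OG2. Its difference was 0.14 ± 0.26 (adjusted p = 0.770).

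Pgam1, the widely expressed phosphoglycerate mutase gene, gave 1140 ± 59.4 in E3, 1115 ± 83.6 in T9 and 481 ± 27.1 in OG2. Here the EpiSC lines did not differ beyond bead error, and the difference from OG2 was 1.27 ± 0.25, or 2.41-fold (adjusted p = 0.101). The muscle mutase gene Pgam2 was dim, above background in T9 at 102 ± 4.25 and in OG2 at 93.8 ± 3.66 and not in E3, with a difference of -0.05 ± 0.37 (adjusted p = 0.938).

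Of the enolases, Eno2, known as the neuronal gene, was the member that differed most between the EpiSC lines. Its signal was not above background in OG2, 160.4 ± 6.12 in T9 and 300.5 ± 14.5 in E3. Set against background in OG2, the EpiSC mean was at least 4.96-fold higher (adjusted p = 0.125). The muscle enolase gene Eno3 gave 268 ± 14.5 in E3, 276 ± 11.4 in T9 and 142 ± 5.89 in OG2, a difference of 1.34 ± 0.25, or 2.54-fold (adjusted p = 0.0938). A probe assigned to Eno1b, a copy of the main enolase gene Eno1, is no member and was looked up after the values were seen. Its normalized log2 intensity was 6.58 in OG2, 7.74 in E3 and 7.54 in T9, a difference of 1.06 ± 0.27 (adjusted p = 0.139).

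Pkm, the pyruvate kinase gene of dividing and muscle cells, gave 13628 ± 382 in E3, 14789 ± 470 in T9 and 4154 ± 208 in OG2. Its difference was 1.58 ± 0.26, or 2.99-fold (adjusted p = 0.0866). It has a single probe, and its splice forms were not separated here.

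Lactate dehydrogenase A reduces pyruvate to lactate. The Ldha signal was 17918 ± 704 in E3, 16626 ± 577 in T9 and 2178 ± 86.4 in OG2. Ldha rose by 2.90 ± 0.25 on the log2 scale, or 7.46-fold (limma adjusted p = 0.0424), and it is the gene whose promoter window above holds the most core motifs of the 5 that rose. Slc16a3 encodes a transporter that exports lactate from glycolytic cells. The Slc16a3 probe that stands for the gene gave 265 ± 13.9 in E3, 226 ± 12.0 in T9 and a signal not above background in OG2. This probe was at least 5.98-fold higher in EpiSC (limma adjusted p = 0.0444, for the measured 9.06-fold). A second Slc16a3 probe for the same transcript accession read the other way, with 96.8 ± 3.84 in OG2 and no signal above background in E3 or T9, which makes it at least 1.16-fold lower in EpiSC (adjusted p = 0.235). The third Slc16a3 probe was not above background in any line, so the call for Slc16a3 rests on 1 of 3 probes. The mean of its tested probes gave 1.26 (adjusted p = 0.109), and an offset of 50 in the background correction gave 1.97 (adjusted p = 0.0683).

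Pyruvate dehydrogenase takes pyruvate into the citric acid cycle, and Pdha1 encodes its catalytic subunit. Pdha1 gave 1732 ± 94.5 in E3, 2036 ± 94.6 in T9 and 1837 ± 60.9 in OG2, with OG2 between the EpiSC lines. Its difference was -0.10 ± 0.28 (adjusted p = 0.850). Pdk1, the hypoxia-inducible kinase gene that inactivates the complex, gave 829 ± 39.3 in E3, 782 ± 43.7 in T9 and 329 ± 12.3 in OG2. Its difference was 1.40 ± 0.25, or 2.63-fold (adjusted p = 0.0921). Pdk3, another kinase of the complex, gave 349.6 ± 14.2 in E3, 407 ± 17.9 in T9 and 274 ± 11.7 in OG2, a difference of 0.49 ± 0.27 (adjusted p = 0.351).

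Of the listed pentose phosphate genes Tkt and Taldo1, the transketolase and transaldolase genes of the non-oxidative branch, were measured. Tkt gave 1842 ± 141 in E3, 1930.1 ± 133 in T9 and 1857 ± 89.1 in OG2 with its bright probe, a difference of -0.10 ± 0.25 (adjusted p = 0.829). Taldo1 gave 2199.9 ± 78.6 in E3, 1972 ± 63.2 in T9 and 1820 ± 55.5 in OG2, a difference of 0.08 ± 0.26 (adjusted p = 0.877). Neither gene was 2-fold apart in either EpiSC line. Both dim further Tkt probes were above background in T9 only, and the mean of the 3 Tkt probes gave 0.30 in place of a negative value.

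**Figure D4:**
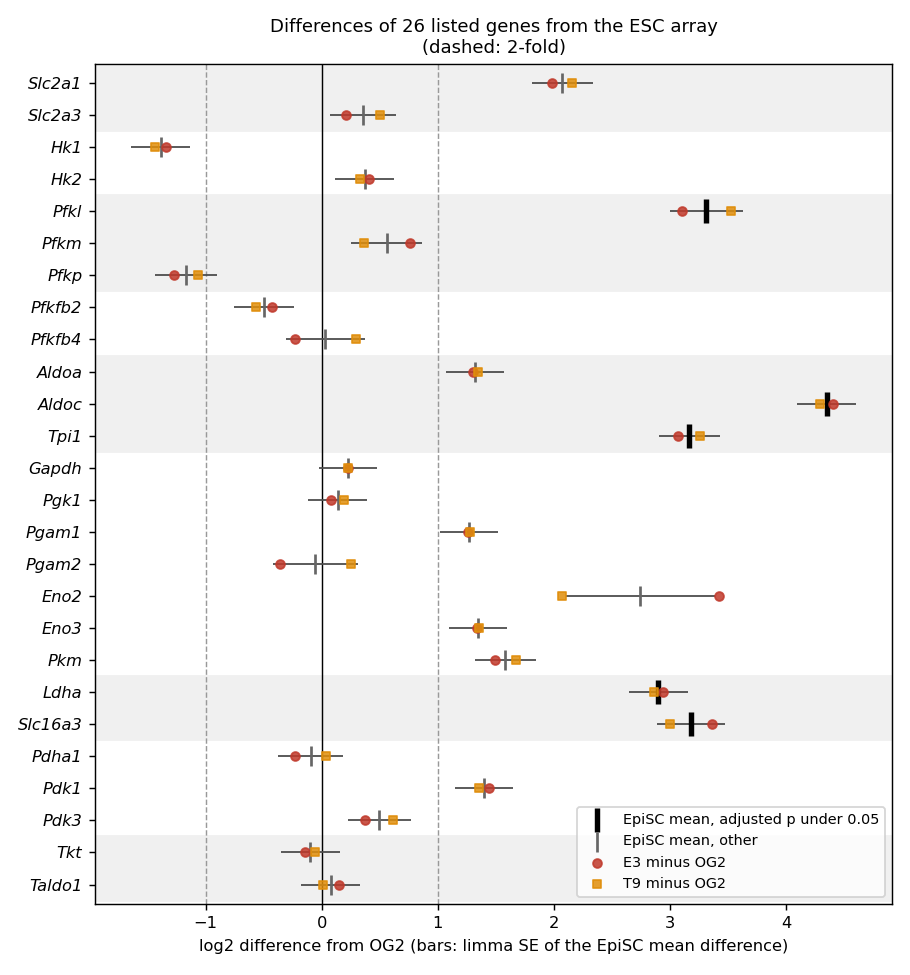
Log2 difference of each EpiSC line from OG2 for the 26 genes, with the EpiSC mean and its limma SE; dashed lines mark 2-fold. Thick bars mark Pfkl, Aldoc, Tpi1, Ldha and Slc16a3, the 5 genes past the threshold, and the pentose phosphate genes Tkt and Taldo1 lie near 0.

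Isoenzymes of the same step were then compared by how far each lay from OG2, since levels of different probes cannot be set against each other. In all, 10 pairs were formed, each written with the gene that was further up in EpiSC first, so the sign is fixed by this order. With 3 arrays an exact test cannot give a p below 0.333, and no test was made. Both EpiSC lines placed the genes of each pair in the same order, and they share the OG2 array. The narrowest gap in E3 was that of Pfkfb4 over Pfkfb2, at 0.19, with 0.86 in T9, and both probes were dim. For Pgam1 over Pgam2 it was 1.63 in E3 and 1.02 in T9, with Pgam2 not above background in E3. The widest gap was between Pfkl and Pfkp, at 4.37 in E3 and 4.59 in T9 on the log2 scale. Aldoc was further above OG2 than Aldoa by 3.10 in E3 and 2.95 in T9. The gap of Slc2a1 over Slc2a3 was 1.78 and 1.65, and that of Hk2 over Hk1 1.75 and 1.76. The lines were less alike for Pfkl against Pfkm, at 2.34 in E3 and 3.17 in T9. For Eno2 against Eno3 the measured gaps were 2.09 in E3 and 0.71 in T9, but Eno2 was not above background in OG2, so they are no exact values. Pdk1 exceeded Pdk3 by 1.06 in E3 and 0.74 in T9. With the mean of all tested probes, the gap for the EpiSC mean was 3.33 in place of 4.48 between Pfkl and Pfkp and 1.61 in place of 2.75 between Pfkl and Pfkm. At an offset of 50 and in the authors' processed table, the gap of Aldoc over Aldoa was 2.19 and 3.55 in place of 3.03, that of Hk2 over Hk1 1.16 and 2.49 in place of 1.76, and that of Eno2 over Eno3 0.65 and 2.74 in place of 1.40.

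**Figure D5:**
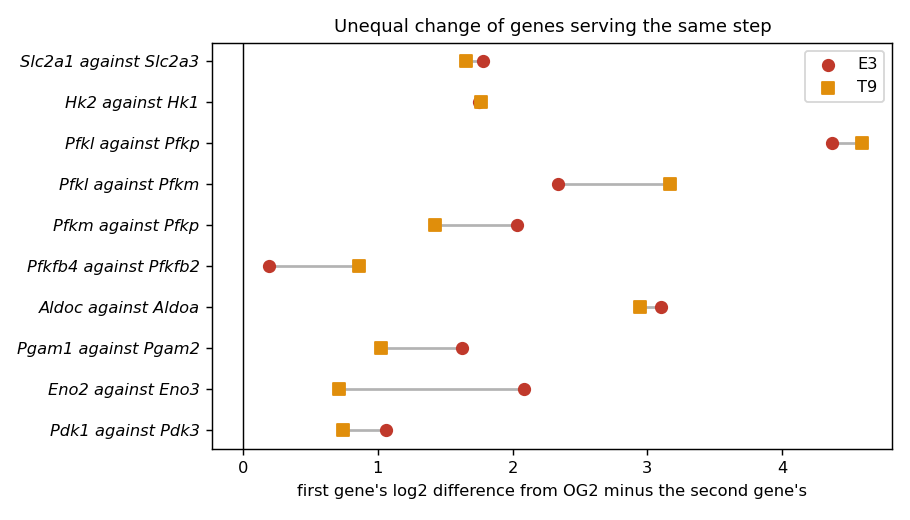
Log2 difference from OG2 of the first gene minus that of the second (horizontal axis) for 10 pairs of genes serving the same step, in E3 and T9. Pfkl against Pfkp lies furthest to the right in both lines, and Eno2 against Eno3, where Eno2 was not above background in OG2, shows the widest gap between the lines.

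The 2 EpiSC lines were compared with each other by size alone, with 1 array on each side and no test. The labels give them different genetic backgrounds, so line and background cannot be told apart. Eno2 was 2.56-fold higher in E3 than in T9, and it was the only 1 of 26 members 2-fold higher in E3, against 2.41% of all genes. No member was 2-fold higher in T9, against 3.38% of all genes. The median size of the difference between E3 and T9 was 0.16 on the log2 scale over the 26 genes and 0.27 over all genes tested. These sets were not matched for brightness. Above background on all 3 arrays were 23 of the 26 members, against 6513 of 8688 genes. After Eno2, the dim Pgam2 probe differed most (0.62 higher in T9, not above background in E3), followed by Pfkfb4 (0.52 higher in T9) and Pfkl (0.43 higher in T9). For Aldoa, Pgam1 and Eno3 the lines differed by 0.04, 0.01 and 0.02.

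A wider list of 69 names for further enzymes, transporters and regulatory subunits around the pathway, which includes older names of some genes, held 59 with a probe and 33 tested. None passed the limma test, and at an unadjusted p under 0.05 3 were higher and 4 lower, against 12% and 12.2% of all genes tested, so neither share was above that over all genes. The median log2 difference was -0.04. At least 2-fold higher in both EpiSC lines were the embigin gene Emb, whose product escorts lactate transporters to the membrane, the phosphoglucomutase gene Pgm1 and the glycogen phosphorylase gene Pygl. The normalized log2 intensity of Emb was 7.72 in OG2, 10.76 in E3 and 11.58 in T9, a 10.9-fold difference with an adjusted p of 0.0647. Pgm1, which links glycogen to glycolysis, had a level of 6.58 in OG2, 9.25 in E3 and 8.85 in T9 (5.53-fold, adjusted p = 0.0622). Pygl had a level of 4.88 in OG2, 6.28 in E3 and 7.90 in T9 (adjusted p = 0.198).

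By their normalized levels, the genes at least 2-fold below OG2 in each EpiSC line were the muscle-type gluconeogenic phosphatase gene Fbp2 and the transketolase-like gene Tktl1, and as neither was above background in EpiSC their folds are given as bounds. Fbp2 lay at 6.51 in OG2 and was not above background in either EpiSC line, at least 3.21-fold lower (adjusted p = 0.0651). Tktl1 lay at 5.73 in OG2 and was not above background in EpiSC, at least 1.88-fold lower (adjusted p = 0.0894). Both were above background in OG2 only, so the filter fixed their direction.

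Of 13 tested regulators of glycolysis, the prolyl hydroxylase gene Egln3 rose, 0 fell and 12 did not pass the limma test. Over all tested genes 0.299% were called higher and 0.921% lower. At an unadjusted p under 0.05, 4 were higher and 2 lower, against 12% and 12.2% of all genes tested. Egln3 and Egln1 passed the filter through the EpiSC arrays alone and Epas1, among the lower ones, through OG2 alone, which fixed their direction. Egln3, a hypoxia-induced enzyme that marks hypoxia-inducible factors for degradation, lay at 9.56 in E3 and 8.83 in T9 and was not above background in OG2 (at least 20.03-fold, adjusted p = 0.0390). Its relative Egln1 lay at 6.17 in E3 and 6.27 in T9 and was not above background in OG2 (at least 2.55-fold, adjusted p = 0.0712). The Hif1a transcript, for the hypoxia-inducible factor subunit that is regulated mainly at the protein level, was not higher, with 6.03 in E3, 6.17 in T9 and 6.94 in OG2, a difference of -0.84 ± 0.26 (adjusted p = 0.173). The Myc family gene Mycl differed by 1.64 ± 0.30 (adjusted p = 0.0929), and the RNA-binding protein gene Lin28a, which is known to affect the translation of metabolic enzymes, by 1.59 ± 0.28 (adjusted p = 0.0894).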

How the data were processed

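RNA of 3 mouse lines (EpiSC E3 and T9, ESC OG2) (400 ng) was amplified in a transcription reaction of 12 h, per the labels' protocols. Groups came from the sample titles, and replicate numbers are names only. The scanner tables deposited by the authors hold for each probe an intensity, its standard error over beads and a detection p-value, per the file headers; columns of the OG2 table are headed O2. The intensity values were neither background-subtracted nor normalized. BeadStudio was used, per the submitters' processing notes, with a version and genome build not given in the sources used here. The authors' deposited table of processed intensity values was an alternative only, with blanks set to its lowest value.

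With limma 3.58.1 in R 4.3.3, background was corrected (nec, offset 16), and log2 values were quantile normalized. The 12603 probes above background somewhere (detection p under 0.01) were fitted with lmFit and eBayes, two-sided, with Benjamini-Hochberg adjustment over all of them. The probe with the highest mean level stood for a gene. Of 25697 probes, 23978 had 1 gene symbol, 0 several and 1719 none. Where no array of a side was above background, "at least" gives the fold against the higher of the lowest detected level and the probe's own level. The adjusted p given beside an "at least" fold is that of the measured difference and not of this bound. Dim folds are understated by the offset. The fit was tested on simulated data. Each of the 34 genes is named by rule. Members and lists were chosen with earlier results of these data known. Alternatives were median scaling, cyclic loess, an offset of 50, 2 other filters, the authors' table, probe means and leaving out each EpiSC line. Promoter sequences are RefSeq's. Binding of near-identical copies or pseudogene transcripts to the probes was not tested.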

Additional observations from a re-analysis of the deposited data

Results flagged for a closer look

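For 3 members the EpiSC lines lay on opposite sides of OG2, which was not tested. The PFKFB gene Pfkfb4 lay 0.23 below OG2 in E3 (a log2 difference of -0.23) and 0.29 above it in T9, so that E3 minus T9 was -0.52. The muscle mutase gene Pgam2, dim and not above background in E3, gave -0.36 in E3 and 0.25 in T9, with E3 minus T9 at -0.62. The pyruvate dehydrogenase subunit gene Pdha1 gave -0.23 in E3 and 0.04 in T9, with E3 minus T9 at -0.27. Over all tested genes 1591 of 8688 had such opposite signs.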

How the results depend on the processing

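The count of probes past the threshold was 145 (36 higher, 109 lower). It was 378 (138 and 240) with median scaling, 344 (122 and 222) with cyclic loess, 93 (58 of them lower) among probes detected on all 3 arrays, and 21 higher with an offset of 50. The share that was higher was 24.8%, against 36.5% and 35.5% with median scaling and cyclic loess and 37.6% among probes detected on all 3 arrays. With no filter, and in the authors' table, it was 0, higher 0 and lower 0. Of the 5 members called, 5 stayed called with median scaling and with cyclic loess, where Slc2a1 joined them. With an offset of 50, 3 stayed called (Aldoc, Ldha and Tpi1), with the mean of all tested probes 2 members passed (Aldoc and Ldha), among genes detected on all 3 arrays 4, and 0 did so with no filter or in the table of the authors. Members 2-fold lower than OG2 were 1 in E3 and 0 in T9 with an offset of 50. Between the EpiSC lines 0 members were 2-fold higher in E3 among genes detected on all 3 arrays, since Eno2 was left out there, and 1 was 2-fold higher in T9 in the authors' table. The median of 0.53 became 0.49 with cyclic loess, 0.48 with an offset of 50, 0.37 with no filter, which adds 3 undetected genes, and 0.49 among genes detected on all 3 arrays. Leaving out either EpiSC line gave 0.56 and 0.59, with no test. Among settings that keep all arrays, only Tkt of the 26 members changed sign, to 0.30 with the mean of its probes. The cause of these shifts was otherwise not tested. No paired analysis was possible because the replicate numbers only name samples and there is 1 ESC array. Dim probes such as Hk1, Pgk1, Pgam2 and the PFKFB genes lie near background, which limits what their differences can show.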
